A study of Mus musculus with 10 samples.

Results

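Classical monocytes are the Ly6C-high class of mouse blood monocytes. The genes followed here were 7 that mark this class and were listed by name: Ly6c2, Ccr2, Csf1r, Lyz2, Fn1, Tgfbi and F13a1. All 7 were found by symbol among the 32285 genes of the count table, and all 7 passed the count minimum of every fit. Blood was taken from C57/BL6J mice whose cell type is labelled leukocyte, and each library held total RNA of 3 pooled mice. The 10 groups had 1 library each. Controls (Con) are labelled 0 h; mice kept under sleep deprivation (SD) were sampled after 6, 12, 24 or 48 h, and mice under a method of sleep restriction from earlier work (SASD) after 6, 12, 24, 48 or 120 h. All groups share the strain and pentobarbital anaesthesia before sampling. For age, the hour of sampling and the way either method was carried out, nothing is given in the sources used here. No group had a replicate library, so a difference between single libraries could not be set against the spread between mice.

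Classical monocytes leave the bone marrow by way of the chemokine receptor CCR2, circulate for a short time, and enter inflamed tissue or turn into the patrolling nonclassical class in the blood vessels. Signals through the CSF1 receptor act in the survival and maturation of the monocyte lineage. The number of classical monocytes in mouse blood is known to vary over the day under the circadian clock. In bulk blood RNA, more cells of a type and more RNA per cell cannot be told apart.

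Library totals ran from 7825120 to 27501393 counts, and the 7 genes together took 0.163% (SASD 12 h) to 0.5697% (SD 48 h) of them. Haemoglobin genes took 0.275% to 0.727% of the counts in Con, SD 48 h and SASD 48 h and 3.57% to 6.96% in the other 7 libraries, so that the libraries of a shared time always lay on the same side. Genes of olfactory receptors, taken as a measure of background, stood at 0.00432 to 0.0645 CPM (the usual scale of counts per library size) per kilobase, highest in Con. The lowest level per kilobase of any of the 7 genes was 4.91 CPM, that of Fn1 in SASD 12 h.

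Sequence before the start of 3 of the genes is shown: Lyz2, the most abundant, Tgfbi, whose course differed from the others, and Ly6c2, the antigen that names the class. Windows were found for 5 of the 7 genes (Ccr2, Lyz2, Tgfbi, Ly6c2 and F13a1) in RefSeq promoters of build GRCm38.p6. These were 7 windows, as Ly6c2 and F13a1 have more than 1 start. Each window spanned the 250 bases before the RefSeq start and was searched on both strands for 5 short motifs of factors or elements that act in myeloid or clock-driven genes, and capitals mark the matches. Printed is the part that lies outside the GENCODE gene as well, which holds every match of the windows shown.
Lyz2, chr10:117282322-117282522, minus strand: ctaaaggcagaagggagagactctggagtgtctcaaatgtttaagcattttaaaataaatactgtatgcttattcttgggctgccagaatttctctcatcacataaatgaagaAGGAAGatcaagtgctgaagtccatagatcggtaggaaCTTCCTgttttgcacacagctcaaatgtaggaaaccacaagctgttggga
Tgfbi, chr13:56609336-56609522, plus strand: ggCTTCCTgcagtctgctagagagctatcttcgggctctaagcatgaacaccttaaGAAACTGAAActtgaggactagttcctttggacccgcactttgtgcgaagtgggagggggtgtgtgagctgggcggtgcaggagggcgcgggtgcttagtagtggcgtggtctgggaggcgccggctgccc
Ly6c2, chr15:75111972-75112221, minus strand: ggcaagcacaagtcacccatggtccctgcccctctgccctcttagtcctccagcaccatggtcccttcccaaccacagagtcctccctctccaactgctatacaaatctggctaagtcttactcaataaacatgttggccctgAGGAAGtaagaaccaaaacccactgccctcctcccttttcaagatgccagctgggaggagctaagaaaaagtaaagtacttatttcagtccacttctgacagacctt
The Ccr2 window, not printed, held no match. The letters AGGAAG, the core bound by PU.1, a master regulator of myeloid cells, were found in the windows of the other 4 genes (Lyz2, Tgfbi, Ly6c2 and F13a1) and in 29.5% of all 32851 windows of that length, a share per window and not per gene. A further AGGAAG of Ly6c2 lay 7 bases before another start, 75111937, whose window is not printed. The core of the interferon-response element was found in Tgfbi and in 2.98% of all windows. None of the 5 genes held the C/EBP letters TTGCNNAA, present in 9.56% of all windows. The E-box of clock factors, spelled CACGTG and present in 6.02% of windows, was not found in them either. A TATA box, searched as TATAAA and present in 12.4% of windows, likewise had no match. A match describes the sequence and does not show binding.

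SASD 12 h was the lowest library for 4 of the 7 genes (Ccr2, Fn1, Lyz2 and Csf1r) and Con for the other 3, and SD 24 h was the highest for 5 of 7. Ccr2, the receptor for the chemokine CCL2 and the exit signal from the bone marrow, lies at chr9:124101950-124113557 on the plus strand. It stood at 142 CPM after TMM scaling in Con. The SD libraries held 169, 132, 523 and 505 CPM at 6, 12, 24 and 48 h, and the SASD libraries 213, 73.5, 234, 417 and 347 CPM at these times and 120 h. Both 12 h libraries were the lowest of the 10, and both late SD libraries were the highest. Csf1r, which encodes the receptor for the growth factors CSF1 and IL-34 and is made by both monocyte classes, lies at chr18:61100598-61132149 on the plus strand. Its levels were 159 CPM in Con, then 169, 242, 380.2 and 312 CPM under SD and 228, 144, 237, 362 and 285 CPM under SASD in the same order of times. Csf1r was thus lowest in SASD 12 h and highest in SD 24 h, and unlike Ccr2 it was higher at 12 h than at 6 h under SD. Of its annotated transcript sequence 14.3% is shared with Hmgxb3, and read pairs falling in 2 genes were not counted.

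Ly6c2 encodes a form of the Ly6C surface antigen by which the class is sorted, and Lyz2 encodes lysozyme M, an enzyme of both monocytes and neutrophils that cuts bacterial cell walls. Ly6c2 (chr15:75108158-75111970, minus strand) stood at 44.0 CPM in Con, at 57.5, 55.4, 110.3 and 109 CPM in the SD libraries, and at 59.3, 55.3, 53.8, 93.8 and 93.6 CPM in the 5 SASD libraries in order of time. Its values lay in a low range up to 59.3 CPM and a high range from 93.6 CPM, with SD 24 h, both 48 h libraries and SASD 120 h in the high one. Its neighbour Ly6c1, with which it shares most of the 14.5% of its 50-base stretches found in other genes, stayed between 5.78 and 13.7 CPM and had its lowest value in SASD 48 h. Lyz2 (chr10:117277331-117282321, minus strand) stood at 1090.1 CPM in Con, at 1329.5, 1255, 3086 and 2980.0 CPM under SD, and at 1657, 955, 1824, 2794 and 2629 CPM under SASD. The 4 libraries highest in Lyz2 were the same 4 that were high in Ly6c2. Per kilobase of exon Lyz2 was the most abundant of the 7 genes, with a median level of 1322 over the libraries against 21.3 for Ly6c2, the least abundant. Its copy Lyz1, which accounts for the 15.4% of 50-base stretches that Lyz2 shares, stood at 1.90 to 9.48 CPM.

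The other 3 genes encode secreted proteins of matrix and clotting. Fn1 (chr1:71585520-71653200, minus strand) encodes fibronectin, and stood at 187 CPM in Con, at 183, 129.7, 641 and 489 CPM under SD, and at 204, 57.4, 327, 588 and 331 CPM under SASD. It spanned the widest range of the 7, 11.2 times from SASD 12 h to SD 24 h. Tgfbi (chr13:56609523-56639562, plus strand) encodes a matrix protein induced by TGF-beta, and stood at 126 CPM in Con, at 186, 325, 512 and 567 CPM under SD, and at 227, 143, 274, 257 and 212 CPM under SASD. Among the SD libraries each later time was higher than the one before, whereas the SASD libraries stayed at or under 274 CPM. F13a1 (chr13:36867178-37050244, minus strand) encodes the catalytic chain of clotting factor XIII, which platelets also carry. Its levels were 211 CPM in Con, 313, 278, 478 and 431 CPM under SD, and 360.0, 269, 553, 310.0 and 302 CPM under SASD. Here the highest library was SASD 24 h, which was also the highest of the 10 in the summed level of 10 platelet marker genes (11448 CPM, against 1839 to 8286 in the others). The part of platelets in the F13a1 values was not tested.

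**Figure D1:**
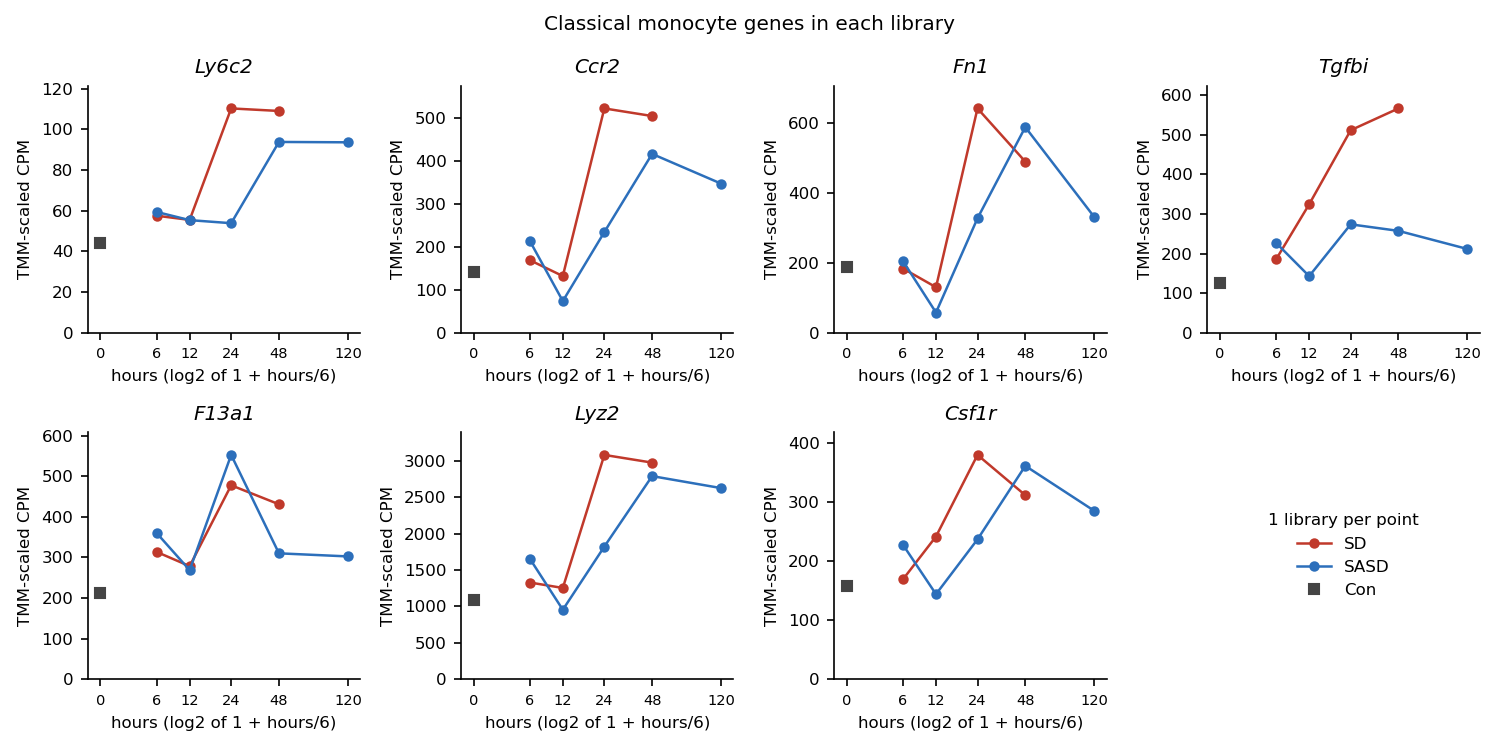
Level of each of the 7 genes in TMM-scaled CPM (vertical axis, from 0) against hours drawn as log2(1 + hours/6), with 1 library per point. Con is grey, SD red and SASD blue. Ccr2 and Fn1 are lowest in both 12 h libraries (73.5 and 132 CPM for Ccr2), and Tgfbi goes from 186 to 567 CPM under SD while it lies at or under 274 CPM under SASD.

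The spread of levels over libraries was largest for Fn1 (standard deviation of log2 CPM 1.08, n = 10 libraries) and Ccr2 (0.93) and smallest for F13a1 (0.42). Over the 10 libraries the 21 pairs among the 7 genes had Pearson correlations of log2 CPM from 0.451 (F13a1 with Ly6c2) to 0.9796 (Lyz2 with Ccr2), with a median of 0.752. Ccr2 and Fn1 correlated at 0.971, Lyz2 and Csf1r at 0.936, and Tgfbi with no other member above 0.805. These values describe 10 libraries that differ in depth and haemoglobin share, and carry no test. Among 961 other genes of enough counts and spread, the closest to Ccr2 were Rin2 (r = 0.987), Ppfia4 (0.985) and Tifab (0.975). Those closest to Fn1 were C3, the central complement component (0.9596), Rin2 (0.959) and Arhgef37 (0.959), and Lyz2 followed Olfm1 (0.978), Ppfia4 (0.971) and the UDP receptor gene P2ry6 (0.969). For Csf1r they were Plbd1 (0.975), Gpr35 (0.966) and the high-affinity Fc receptor gene Fcgr1 (0.966), and for Ly6c2 Clec4a1 (0.954), Ifitm3 (0.949) and Ccl9 (0.932). Tgfbi lay nearest to Ltb4r1 (0.9902), a leukotriene B4 receptor gene, Csf2rb2 (0.985) and App (0.984). F13a1 had no close match, its nearest being Ckb (0.837), Nod2 (0.835) and the clotting factor gene F10 (0.823).

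The first comparison asked how SD differed from SASD at each shared time. At 6 h all 7 genes were somewhat lower under SD, with log2 ratios of SD over SASD from -0.43 (Csf1r) to -0.05 (Ly6c2) and a median of -0.29 beside -9.19e-05 over all genes compared. None (0 of 7) differed 2-fold, as did 0.104% of 11537 genes upward and 0.91% downward. At 12 h all 7 ratios were above 1, although the log2 ratio of Ly6c2 turned to between -0.03 and -0.01 with the other scalings, and the median log2 ratio was 0.75 against -0.01 over all genes. Tgfbi stood 2.27-fold higher under SD (95% counting interval 2.13 to 2.425), from 3232 counts against 1314, and Fn1 2.26-fold (2.04 to 2.51), from 1292 against 528. These 2 of 7 passed 2-fold where 2.8% of 11295 genes did, with 0.0974% as much lower. Ccr2 stood at 1.79-fold (1.63 to 1.97) and Csf1r at 1.68-fold (1.57 to 1.797). Ly6c2 at 1.002-fold (0.887 to 1.13) and F13a1 at 1.04-fold (0.982 to 1.095) did not differ between the 12 h libraries beyond counting error.

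At 24 h Ccr2 and Ly6c2 had their highest ratios. Ccr2 was 2.23-fold higher under SD (2.11 to 2.36) and Ly6c2 2.05-fold (1.82 to 2.32), followed by Fn1 at 1.96-fold (1.87 to 2.06), Tgfbi at 1.87-fold (1.77 to 1.97), Lyz2 at 1.69-fold (1.66 to 1.73) and Csf1r at 1.604-fold (1.51 to 1.70). F13a1 alone of the 7 was lower, at 0.865-fold (0.828 to 0.903), and with scaling by total counts its log2 ratio turned from -0.21 to 0.01. At 2-fold or more higher were 2 of 7 members, against 3.57% of 11135 genes (3.39% as much lower), and 4 with scaling by total counts. At 48 h most ratios lay nearer to 1. Tgfbi was still 2.20-fold higher under SD (2.14 to 2.27) and was the 1 of 7 past 2-fold, where 4.13% of 12608 genes were and 1.64% were as much lower. F13a1 followed at 1.39-fold (1.35 to 1.44), Ccr2 at 1.21-fold (1.18 to 1.25), Ly6c2 at 1.16-fold (1.09 to 1.24) and Lyz2 at 1.07-fold (1.05 to 1.08), a ratio that turned to a log2 value of -0.03 with scaling by total counts. Fn1 was lower at 0.832-fold (0.809 to 0.855), and so was Csf1r at 0.862-fold (0.833 to 0.893). The counting intervals do not cover differences between pools of mice.

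**Figure D2:**
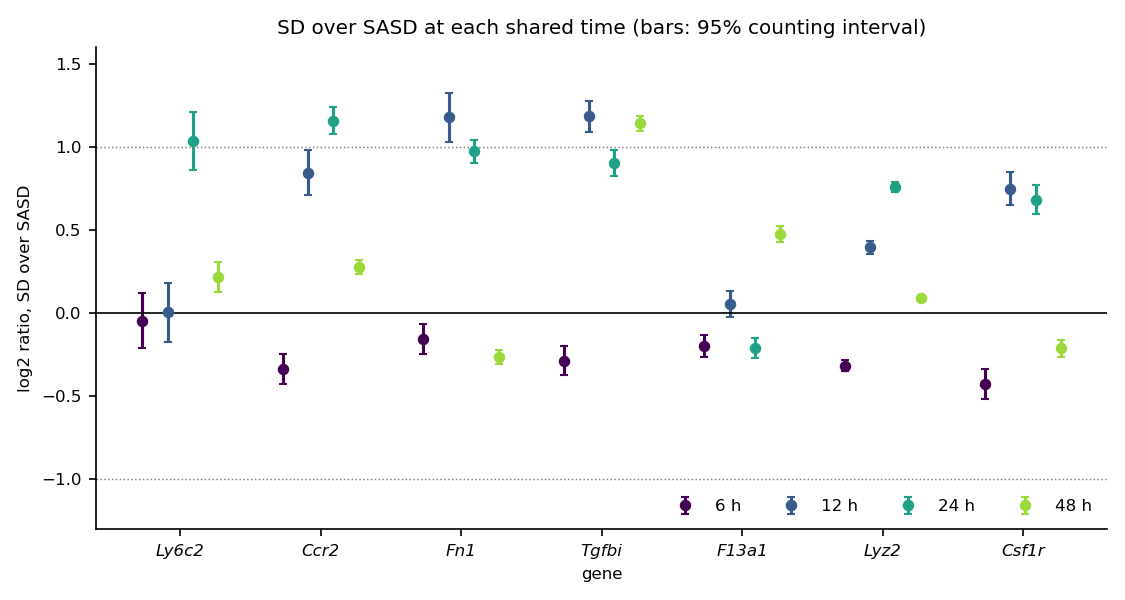
Log2 ratio of SD over SASD (vertical axis) for each gene at 6, 12, 24 and 48 h, each point a ratio of 2 libraries and each bar its 95% counting interval; dotted lines mark 2-fold. The 6 h points lie at or under 0 and Tgfbi is the one gene at 0.90 or more at each of the 3 later times (1.18, 0.90 and 1.14).

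A fit over the 8 libraries with time as a block tested for a steady difference across the 4 times. None (0 of 7) passed edgeR's quasi-likelihood test with Benjamini-Hochberg adjustment over all genes, as was so for all genes (0%, 0 of 13370). At an unadjusted p under 0.05 were 1 of the 7 and 1082 of all genes, and among all genes DESeq2 called 160 and limma 0, none of them a member. Tgfbi had the highest log2 ratio of SD over SASD, 0.75 ± 0.24 (SE, edgeR adjusted p = 0.466). Ccr2 stood at 0.49 ± 0.23, Fn1 at 0.43 ± 0.26, Ly6c2 at 0.30 ± 0.18, Lyz2 at 0.23 ± 0.20, Csf1r at 0.20 ± 0.21 and F13a1 at 0.03 ± 0.14 (edgeR adjusted p from 0.666 to 0.971). Without the 6 h pair, in which Tgfbi was lower under SD, Tgfbi passed at 1.07 ± 0.14 (edgeR adjusted p = 0.0198). In that fit 237 genes passed in all. Tgfbi also passed with no count minimum (edgeR adjusted p = 0.00390), where 389 genes did.

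The second comparison asked whether levels went steadily with the hours of each method. Slopes are log2 changes per unit of log2(1 + hours/6), so that 0 h is 0 and 6 h is 1. Under SD all 7 slopes were above 0, as were 46.3% of all genes. Tgfbi had the steepest, 0.76 ± 0.10 (SE, Con and 4 SD libraries, edgeR adjusted p = 0.0651). Ccr2 had 0.69 ± 0.18, Fn1 0.60 ± 0.23, Lyz2 0.54 ± 0.13, Ly6c2 0.47 ± 0.09, Csf1r 0.41 ± 0.11 and F13a1 0.36 ± 0.10, at edgeR adjusted p-values from 0.155 (Ly6c2) to 0.457 (Fn1). None (0 of 7) was called by edgeR, where 0.124% of 14562 genes were, although all 7 had an unadjusted p under 0.05, as did 1515 genes in all. A term for the 2 libraries of few haemoglobin counts in this fit, Con and SD 48 h, left 2 residual degrees of freedom. With it edgeR called 6 of 7 as rising where 4.32% of genes were so called: Tgfbi (adjusted p = 0.00128), Ly6c2 (0.0132), F13a1 (0.0298), Csf1r (0.0344), Lyz2 (0.0368) and Ccr2 (0.0414), but not Fn1 (0.114). DESeq2 without that term called the same 6, with 3.44% of genes rising, while limma called Tgfbi alone (adjusted p = 0.0421) where 0.467% of genes were called as rising.

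Under SASD, where the fit ran to 120 h instead of 48 h, the slopes were lower for every member. They were 0.37 ± 0.15 for Ccr2, 0.37 ± 0.21 for Fn1, 0.32 ± 0.11 for Lyz2, 0.26 ± 0.06 for Ly6c2, 0.24 ± 0.09 for Csf1r, 0.17 ± 0.10 for Tgfbi and 0.09 ± 0.13 for F13a1 (SE, Con and 5 SASD libraries). EdgeR called 0 of 7 and 0% of 14602 genes, each member at an adjusted p = 0.9999; at an unadjusted p under 0.05 were 4 of 7 and 443 of all genes, and DESeq2 and limma called 0 genes. The F13a1 slope turned to -0.06 without Con. The difference itself, the SD slope minus the SASD slope over 9 libraries up to 48 h, was tested with Con shared by both. It was 0.38 ± 0.10 for Tgfbi (edgeR adjusted p = 0.213), 0.22 ± 0.19 for Ccr2, 0.16 ± 0.08 for Ly6c2, 0.13 ± 0.24 for Fn1, 0.12 ± 0.12 for Lyz2, 0.09 ± 0.10 for Csf1r and 0.02 ± 0.12 for F13a1 (edgeR adjusted p from 0.716 to 0.983). EdgeR called 0 of 7 and 0.41% of 14138 genes; 1 of 7 and 1071 of all genes had an unadjusted p under 0.05. DESeq2 called Tgfbi alone of the 7 (adjusted p = 0.0113) and 1.85% of genes as higher under SD, and limma 0.721% of genes and none of the 7. Fn1 and F13a1 differences turned to -0.04 and -0.03 without SD 24 h.

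**Figure D3:**
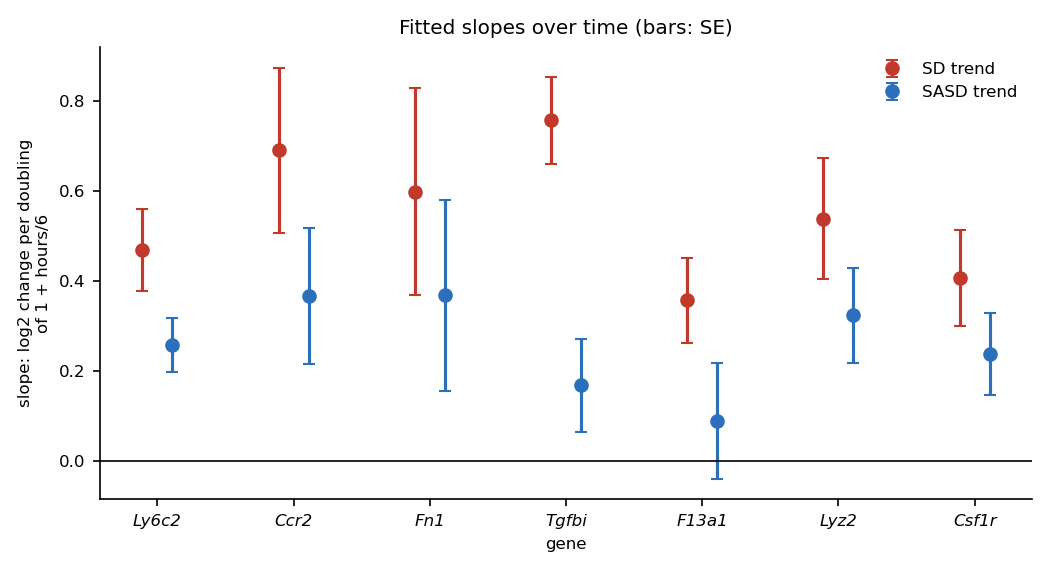
Fitted slope of each gene (log2 change per unit of log2(1 + hours/6), vertical axis) over Con and the SD libraries (red) and over Con and the SASD libraries (blue), with bars of 1 SE. The gap is widest for Tgfbi, at 0.76 under SD (to 48 h) and 0.17 under SASD (to 120 h). Over libraries up to 48 h, with Con shared, the difference of slopes was 0.38 for Tgfbi and 0.02 for F13a1.

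Ratios between neighbouring times described the course within each method, all among libraries rich in haemoglobin counts. From 6 to 12 h under SASD, Fn1 at 0.281-fold (0.255 to 0.309) and Ccr2 at 0.344-fold (0.315 to 0.375) were lower by over 2-fold, 2 of 7 members against 1.65% of 11429 genes (0.131% as much higher), and all 7 log2 ratios lay below 0. Under SD the same step gave 0.708-fold for Fn1 and 0.780-fold for Ccr2 but 1.75-fold for Tgfbi (1.65 to 1.85) and 1.43-fold for Csf1r (1.34 to 1.52), and 0 of 7 passed 2-fold in either direction, where 1.2% of 11447 genes were higher and 0.332% lower. From 12 to 24 h, Fn1 stood 4.94-fold higher under SD (4.66 to 5.25) and 5.70-fold higher under SASD (5.18 to 6.28), and Ccr2 3.97-fold (3.74 to 4.22) and 3.19-fold (2.91 to 3.50). In this step 3 of 7 members were 2-fold higher under SD, Lyz2 being the third, against 1.49% of 11437 genes (0.586% as much lower). Under SASD there were 3 as well, with F13a1 in place of Lyz2, against 2.07% of 10976 genes (1.11% as much lower). Ly6c2 parted from this pattern, at 1.99-fold under SD (1.80 to 2.21) and 0.973-fold under SASD (0.846 to 1.12).

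Both 48 h libraries and Con were poor in haemoglobin counts, so these 3 could be set side by side without crossing that split, with Con shared by both ratios. SD 48 h over Con was 4.52-fold for Tgfbi (4.35 to 4.69), 3.56-fold for Ccr2 (3.43 to 3.70), 2.73-fold for Lyz2 (2.695 to 2.77), 2.62-fold for Fn1 (2.53 to 2.71), 2.48-fold for Ly6c2 (2.31 to 2.67), 2.04-fold for F13a1 (1.97 to 2.11) and 1.97-fold for Csf1r (1.89 to 2.05). SASD 48 h over Con was 3.14-fold for Fn1 (3.05 to 3.24), 2.94-fold for Ccr2 (2.84 to 3.04), 2.56-fold for Lyz2 (2.53 to 2.60), 2.28-fold for Csf1r (2.20 to 2.36), 2.13-fold for Ly6c2 (1.999 to 2.28), 2.05-fold for Tgfbi (1.97 to 2.13) and 1.47-fold for F13a1 (1.42 to 1.51). In each, 6 of 7 members were 2-fold higher, against 4.08% of 13646 genes for SD (8.16% as much lower) and 1.27% of 14296 genes for SASD (7.53% as much lower). Con also differed from both 48 h libraries in markers of other cells. Stromal markers were 2-fold lower than in Con for 5 of 5 genes in each. Erythroid genes were so for 3 of 6 in SD 48 h and 5 of 6 in SASD 48 h. Mature neutrophil genes were 2-fold higher than in Con for 10 of 10 in SD 48 h and 0 of 10 in SASD 48 h. Their median log2 ratios were 2.76 and 0.13, beside 1.39 and 1.19 for the 7 members. Genes of granulocyte and monocyte precursors were 2-fold higher for 4 of 6 in SD 48 h and 0 of the 2 with enough counts in SASD 48 h. From 24 to 120 h under SASD, Ly6c2 was 1.74-fold higher (1.54 to 1.97), Ccr2 1.48-fold (1.40 to 1.58) and Lyz2 1.44-fold (1.41 to 1.47), Fn1 stood at 1.01-fold (0.959 to 1.07), and Tgfbi at 0.772-fold (0.726 to 0.822) and F13a1 at 0.547-fold (0.522 to 0.574) were lower. In that step 0 of 7 passed 2-fold, where 2.83% of 11104 genes were higher and 6.86% lower, and 1 passed with scaling by total counts.

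The other monocyte genes gave the setting. Of 20 further genes of classical monocytes, 17 had a log2 ratio of SD over SASD above 0 over the 4 times (median 0.32, beside -0.0033 over all genes), and 0 passed edgeR, with 6 at an unadjusted p under 0.05. By time, 6 of 20 lay above 0 at 6 h (median -0.08), 19 at 12 h (0.43), 17 at 24 h (1.098) and 9 at 48 h (-0.08). The highest were Cd14, the lipopolysaccharide coreceptor, at 2.22 ± 0.52, and Vcan, the matrix proteoglycan versican, at 1.44 ± 0.32 (edgeR adjusted p = 0.310 for each), and the lowest Thbs1, thrombospondin, at -0.17 ± 0.19 and Ly86, a partner of a Toll-like receptor homologue, at -0.15 ± 0.09. In the difference of slopes 1 of the 20 passed edgeR as higher under SD, Cd14 at 1.11 ± 0.17 (adjusted p = 0.0326). Of 13 nonclassical genes 3 lay above 0 (median -0.13), from Pou2f2 at -0.43 ± 0.17 and Ace at -0.28 ± 0.28 to Ear2 at 0.09 ± 0.34 and Treml4 at 0.19 ± 0.32, and 0 passed, with 2 at an unadjusted p under 0.05. By time, 0 of 13 lay above 0 at 6 h (median -0.51), 7 of 13 at 12 h (0.02), 9 of 12 at 24 h (0.68) and 1 of 13 at 48 h (-0.43). At 24 h most genes of both lists thus stood higher under SD. The summed level of the nonclassical list was 2209 CPM in SD 24 h and 2519.5 CPM in SASD 24 h. Pou2f2 (512 against 917 CPM), Itgal (768 against 854 CPM) and Cd36 (130 against 188 CPM) were lower in SD 24 h. Cx3cr1 (128 against 76.4 CPM), Ace (128 against 79.4 CPM), Ear2 (30.4 against 9.77 CPM) and Treml4 (40.2 against 14.3 CPM) were higher there.

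Among 10 transcription factors of the lineage 7 lay above 0 (median 0.16). Cebpb at 0.95 ± 0.25 and Spi1, which encodes PU.1, at 0.74 ± 0.18 were the highest and Zeb2 at -0.19 ± 0.09 and Irf8 at -0.10 ± 0.10 the lowest. Of 13 ligands and partners of the 7 genes, 8 had enough counts and 3 of these lay above 0 (median -0.06). The CCR2 ligand genes were scarce, Ccl2 standing at or under 1.02 CPM in every library and Ccl8 and Ccl12 having counts in Con alone. The fibronectin receptor subunit gene Itga5 stood at 0.63 ± 0.25 and the transglutaminase gene Tgm2 at 0.60 ± 0.25, and the lowest were the integrin gene Itgb1 at -0.31 ± 0.18 and Tgfb1 at -0.27 ± 0.17. Neither list had a gene past edgeR (0 each), with 3 and 2 genes at an unadjusted p under 0.05.

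Markers of other cells were read beside these values. The 10 mature neutrophil genes were all above 0 (median 1.501), from Csf3r at 0.79 ± 0.22 and Mmp9 at 0.83 ± 0.23 to Il1r2 at 1.79 ± 0.50 and Ly6g at 2.22 ± 0.79, and 0 passed, with 10 at an unadjusted p under 0.05. Their summed level was 2204 CPM in Con, 3092 to 11423 CPM under SD and 2037 to 2809 CPM under SASD. At 6 h 7 of 10 lay above 0, and at 12, 24 and 48 h 10 of 10 did. The medians at these 4 times were 0.09, 1.66, 1.34 and 2.61, beside -0.29, 0.75, 0.90 and 0.22 for the 7 members. In the SD trend 1 of the 10 passed edgeR, Mmp8 at 0.99 ± 0.09 (adjusted p = 0.0411), and in the difference of slopes 3 did: S100a8 at 0.87 ± 0.10, S100a9 at 0.87 ± 0.11 and Retnlg at 0.87 ± 0.11 (adjusted p of 0.0255 to 0.0267). The part of neutrophils in the member values was not tested. Of 6 genes of granulocyte and monocyte precursors 6 lay above 0, from Cd34 at 0.44 ± 0.45 and Kit at 0.77 ± 0.28 to Mpo at 5.56 ± 0.997 and Elane at 6.05 ± 0.65, with 0 past edgeR and 5 at an unadjusted p under 0.05. Their summed level was 76.8 CPM in SD 48 h and 4.13 to 12.9 CPM in the others.

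Of 13 tissue macrophage markers 7 had enough counts, the Kupffer cell marker Clec4f stood at 0 counts in 3 libraries, and the summed level was 29.2 to 97.2 CPM. Among those 7, 6 lay above 0, from Siglec1 at -0.18 ± 0.40 and Mrc1 at 0.07 ± 0.21 to Vcam1 at 1.07 ± 0.77 and C1qb at 1.18 ± 0.50. Stromal markers, of interest because fibroblasts make much fibronectin, summed to 46.7 CPM in Con, 32.8 CPM in SASD 6 h and 6.32 to 12.3 CPM in the other 8 libraries. Over the times 1 of 3 measured lay above 0, Col3a1 at 0.09 ± 0.52 beside Col1a1 at -0.57 ± 0.28 and Col1a2 at -0.66 ± 0.33. Dendritic cell genes ran from Itgax at -0.02 ± 0.14 and Xcr1 at 0.03 ± 0.22 to Siglech at 0.35 ± 0.25 and Flt3 at 0.68 ± 0.22, with 7 of 8 above 0. Lymphocyte genes ran from Klrb1c at -0.23 ± 0.10 and Ms4a1 at -0.17 ± 0.14 to Cd8a at 0.10 ± 0.14 and Cd3d at 0.30 ± 0.13, with 4 of 9 above 0, and summed to 2326 to 3223 CPM over the libraries. Platelet genes had 1 of 9 above 0, from Tubb1 at -0.26 ± 0.28 and Itga2b at -0.25 ± 0.37 to Clec1b at -0.09 ± 0.32 and Pf4 at 0.05 ± 0.29. These values average over times that differed in direction. At 6, 12 and 24 h 0 of 9 platelet genes lay above 0 (medians -0.28, -0.14 and -1.31), and at 48 h 9 of 9 did (1.05). Erythroid genes had 1 of 6, from Alas2 at -0.37 ± 0.23 and Hba-a1 at -0.23 ± 0.26 to Hba-a2 at -0.05 ± 0.22 and Hbb-bt at 0.02 ± 0.21. No gene (0) of the macrophage, stromal, dendritic, lymphocyte, platelet, erythroid or precursor lists passed edgeR in any of the 4 fits.

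Ratios of 2 genes within a library do not depend on scaling between libraries. Ccr2 was set against Cx3cr1, the fractalkine receptor gene that is highest in nonclassical monocytes, as log2 ratios of levels per kilobase. Con gave 0.65, the SD libraries 0.96, 0.65, 1.44 and 1.74 in order of time, and the SASD libraries 0.72, 0.14, 1.03, 1.07 and 0.97. The late SD libraries were thus the highest of the 10 and SASD 12 h the lowest. Ly6c2 over Cx3cr1 gave another order, from 0.18 in SASD 6 h to 1.04 in SASD 12 h, with 0.84 in SD 48 h, and Csf1r over Cx3cr1 lay between 0.92 (SASD 120 h) and 1.75 (SD 12 h).

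Against S100a9, a neutrophil gene, Lyz2 gave -0.51 in Con, -0.36, -1.39, -0.70 and -1.88 under SD, and 0.43, -0.07, 0.77, 0.62 and 1.15 under SASD. Every SD library lay below every SASD library in this ratio, and Con lay among the SD libraries. S100a9 itself stood higher under SD over the shared times, at 1.77 ± 0.33 (edgeR adjusted p = 0.310). Ratios over S100a9 therefore carry its own difference as well. Tgfbi over S100a9 was -5.15 in Con, -5.79 to -4.72 under SD and -4.34 to -3.48 under SASD. Every SASD library lay above every SD library and above Con in this ratio, and of the SD libraries SD 48 h alone lay below Con. F13a1 over the platelet factor gene Pf4 was -3.87 in Con, -3.78, -4.35, -2.98 and -3.13 under SD, and -3.81, -4.57, -3.41, -2.31 and -3.30 under SASD. In this ratio too both 12 h libraries were the lowest, and SASD 24 h, the highest library in F13a1 itself, took a middle place. Fn1 over the collagen gene Col1a2 was 3.58 in Con and 3.996 in SASD 6 h and lay between 4.67 (SASD 12 h) and 7.97 (SD 24 h) in the others, with 20 to 529 counts of Col1a2.

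**Figure D4:**
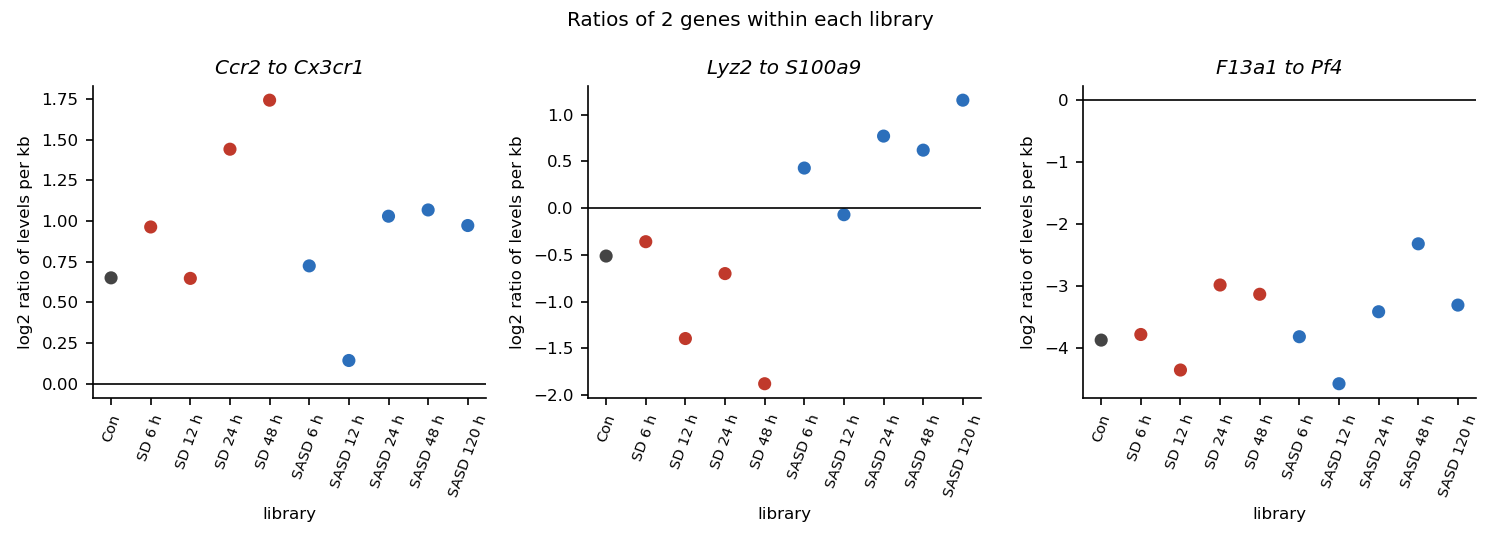
Log2 ratio of 2 genes per kilobase within each library, with Con in grey, SD in red and SASD in blue. Ccr2 over Cx3cr1 is highest in SD 24 h and SD 48 h (1.44 and 1.74), and F13a1 over Pf4 is lowest in both 12 h libraries. Lyz2 over S100a9 is lower in the SD libraries (-1.88 to -0.36) than in the SASD libraries (-0.07 to 1.15), with Con at -0.51. S100a9 itself stood higher under SD.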

How the data were processed

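Total RNA from blood, pooled from 3 mice for each of 10 libraries, was sequenced, and the deposited values were raw counts of read pairs per gene. Per the submitters' processing notes, Trimmomatic 0.39, STAR 2.7.9a and build mm10 were used; per the file headers, the authors counted pairs over exons with featureCounts 2.0.3, with no option set for strand, multi-mapping reads or reads in several genes. Symbols matched 32158 of 32285 IDs, and positions and exon lengths came from GENCODE mouse release 21 (GRCm38). TMM scaling and quasi-likelihood tests used edgeR 4.0.16 (R 4.3.3) on genes averaging at least 10 counts, with Benjamini-Hochberg adjustment at 0.05; the residual degrees of freedom were 3 (SD against SASD, SD trend), 4 (SASD trend) and 6 (difference of trends). P-values measure the spread between these single pooled libraries, part of which may be technical. Standard errors came from the estimate and its F value, and the fits were tested on simulated data. Ratios of 2 libraries have exact conditional binomial 95% intervals (scipy 1.17.1), which cover counting error only; 2-fold counts over all genes used a prior count of 2 and a mean count of at least 25. Like patterns were the 3 genes of highest Pearson correlation with each member among those with a mean count of at least 100 and an SD of log2 CPM of at least 0.5. From each other list the genes past the test, or the 2 highest and 2 lowest ratios of SD over SASD, are named. Shared transcript sequence was counted in stretches of 50 bases. Alternatives were no count minimum, other scalings, DESeq2 1.42.0, limma 3.58.1, linear hours, a haemoglobin term and leaving out libraries. The members and lists were chosen with earlier results of these data known; the 4 ratios of neighbouring times were added after seeing the data.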

Additional observations from a re-analysis of the deposited data

How the results depend on the processing

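Alternatives kept the side of the threshold in most comparisons, but the counts of genes called depended on the tool and on single libraries. For SD against SASD, 389 genes and 1 member (Tgfbi) passed edgeR with no count minimum and 160 passed DESeq2; leaving out 1 time gave 0 to 237 genes and 0 to 1 member, the upper values without the 6 h pair. For the SD trend, the counts of genes and members were 63 and 1 with no minimum, 456 and 6 with DESeq2, 69 and 1 with limma, 796 and 6 with the haemoglobin term, and 0 genes with hours on a linear scale. Leaving out 1 library gave 0 to 511 genes and 0 to 1 member there, the upper values without SD 48 h and 0 genes without SD 6, 12 or 24 h, and 53 genes without Con. For the SASD trend it gave 0 to 1 gene (1 without SASD 48 h). For the difference of trends, genes called were 88 with no minimum, 268 with DESeq2 (1 member), 102 with limma, 6 with linear hours and 264 with the haemoglobin term. Without 1 library they were 0 to 117, the upper value without Con, with 38 without SASD 6 h, 1 without SD 12 h or SD 48 h, and 0 without SD 24 h or SASD 12, 24 or 48 h. In the fits the direction of 2 members turned: F13a1 had -0.10 to 0.11 in SD against SASD without 1 time and -0.064 to 0.24 in the SASD trend without 1 library (-0.0011 with linear hours), and in the difference of trends F13a1 had -0.13 to 0.15 and Fn1 -0.042 to 0.33. In that difference F13a1 lay below 0 without SD 24 h (-0.03), SASD 12 h (-0.0050) or SASD 48 h (-0.13). With total counts, and with total counts less haemoglobin, the members' median log2 ratio was 1.12 and 1.0996 for SD over SASD at 24 h, with 4 members at 2-fold under each, and 0.094 and 0.094 at 48 h. It was 1.26 and 1.25 for SD 48 h over Con, 0.64 and 0.59 for SASD 120 h over 24 h, with 1 member at 2-fold under each, and 0.72 and 0.74 for SASD 24 h over 12 h. SD 12 h over 6 h gave -0.13 without haemoglobin. Among single ratios, other scalings turned Ly6c2 at 12 h, F13a1 at 24 h, Lyz2 at 48 h, and Fn1 in SASD 120 h over 24 h (-0.0056). Total-count scalings shifted the log2 ratios of all genes by -0.22 to 0.37. The cause of these changes was not tested. No paired analysis was possible because of a lack of shared replicates within groups, each of 1 library, beyond the pairing by time that the fit of SD against SASD already holds. The counting intervals do not include differences between mice, and no group has a second pool from which to measure them.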

Other observations

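Among the further classical monocyte genes, a few were singled out after their values were seen. Vcan, the matrix proteoglycan versican, stood at 14.1 CPM in Con, at 14.8, 11.7, 93.1 and 128 CPM in the SD libraries in order of time, and at 13.9, 2.39, 34.6, 30.1 and 13.8 CPM in the SASD libraries. SASD 12 h was its lowest library, from 22 counts, as it was for Ccr2 and Fn1. Chil3, a chitinase-like protein gene of monocytes and neutrophils, stood at 118 CPM in Con, at 81.5, 74.7, 673 and 792 CPM under SD, and at 70.7, 48.8, 269, 395 and 145 CPM under SASD. It too was lowest in SASD 12 h and highest in SD 48 h.

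Gda, which encodes guanine deaminase, took another course. It stood at 220 CPM in Con and 267 CPM in SASD 48 h, its lowest libraries, at 1081, 931, 1392 and 769 CPM under SD, and at 993, 692, 1588 and 428 CPM in SASD 6, 12, 24 and 120 h. Con and SASD 48 h were also poor in haemoglobin counts, as was SD 48 h, in which Gda stood higher than in SASD 12 h and SASD 120 h, both rich in them. The part of haemoglobin in the Gda values was not tested.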
